A study of Homo sapiens with 8 samples.

Results

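Replication of 6 long genes for synaptic and cell adhesion proteins was followed in single cells by scEdU-seq. The genes are NRXN2 and NRXN3, NLGN1, LRRTM4, CTNNA2 and CADM2. They were chosen by name with values of these data known, among them the later timing of NLGN1 and NRXN3 in knockout cells, so every comparison of knockout with wild-type cells over these genes is a description. The 6 were taken from 19974 protein-coding genes of the RefSeq table for GRCh38.p14 on chromosomes 1 to 22 and X, and all 6 had molecules in all 16 combinations of plate and genotype. Their bodies held 64318 EdU-labelled molecules in 124 steps of 50 kb.

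The cells were RPE-1 hTERT, an epithelial line from human retina that carries telomerase and so keeps dividing, either with CFAP20 knocked out (KO) or wild type (WT). Both kinds of cell had the same culture and a single pulse of EdU (10 µM, 15 min), a nucleoside taken up into newly made DNA, with no other treatment per the labels. After fixation in ethanol they were sorted into 8 plates that each held KO and WT cells. How the knockout was made and whether it is 1 clone is not stated in the labels, and the labels do not say that plates came from separate cultures, so spread between plates may be technical. The data are DNA fragments, which show neither the loss of CFAP20 nor the markers of the cell type.

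Neurexins sit on the presynaptic membrane and bind partners across the synaptic cleft. Neuroligins and LRRTM proteins are postsynaptic partners of neurexins. CTNNA2, alpha-N-catenin, ties cadherins to actin, and CADM2 is an immunoglobulin-type adhesion molecule of the synapse, so these last are adhesion genes outside the neurexin, neuroligin and LRRTM families. In a dividing cell the DNA of a gene is copied once per S phase, early or late, and very long genes are commonly copied late. EdU marks the DNA being copied during the pulse, and the mixture of labelled regions in a cell places that cell in S phase.

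NRXN2 is at chr11:64606174-64723197 and spans 117 kb, with 50 other protein-coding genes within 500 kb. NRXN3 is at chr14:78170373-79868291 and spans 1698 kb. NLGN1 is at chr3:173395952-174294372 and spans 898 kb. LRRTM4, at chr2:76747685-77522376, spans 775 kb and has no other protein-coding gene within 500 kb. CTNNA2, at chr2:79185377-80648780, spans 1463 kb and contains LRRTM1, whose 16397 bases of overlap share their molecules with it. CADM2, at chr3:84958989-86074429, spans 1115 kb and also has no coding gene within 500 kb. All coordinates are GRCh38 and cover exons, introns and UTRs of the gene together.

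RefSeq start sites were matched for 3 of the 6 genes, NLGN1, NRXN3 and CTNNA2, all on the plus strand, with 9 starts in all. The 4 windows below are printed because they lie in DNA of different timing described further on. Each runs from 250 bases before to 50 after a start, 5′ to 3′ on the plus strand of GRCh38.p14, and capitals mark the dinucleotide CG, which reads the same on both strands. They are the outermost start of NRXN3 (chr14:78170123-78170422), its innermost start (chr14:79279130-79279429), the outermost start of NLGN1 (chr3:173395702-173396001) and the CG-rich start of CTNNA2 (chr2:79512801-79513100).
NRXN3 outermost: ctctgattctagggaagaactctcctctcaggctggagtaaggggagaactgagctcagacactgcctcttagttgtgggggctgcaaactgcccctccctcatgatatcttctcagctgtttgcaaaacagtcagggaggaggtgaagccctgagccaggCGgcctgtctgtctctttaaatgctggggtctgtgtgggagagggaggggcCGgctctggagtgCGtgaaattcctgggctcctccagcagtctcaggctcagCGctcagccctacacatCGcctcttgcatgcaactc
NRXN3 innermost: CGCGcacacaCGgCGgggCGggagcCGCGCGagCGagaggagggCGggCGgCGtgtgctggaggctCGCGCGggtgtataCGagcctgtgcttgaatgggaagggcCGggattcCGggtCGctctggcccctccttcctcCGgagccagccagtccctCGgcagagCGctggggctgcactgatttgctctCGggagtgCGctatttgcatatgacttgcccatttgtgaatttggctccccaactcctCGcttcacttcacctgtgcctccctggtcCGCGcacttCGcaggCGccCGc
NLGN1 outermost: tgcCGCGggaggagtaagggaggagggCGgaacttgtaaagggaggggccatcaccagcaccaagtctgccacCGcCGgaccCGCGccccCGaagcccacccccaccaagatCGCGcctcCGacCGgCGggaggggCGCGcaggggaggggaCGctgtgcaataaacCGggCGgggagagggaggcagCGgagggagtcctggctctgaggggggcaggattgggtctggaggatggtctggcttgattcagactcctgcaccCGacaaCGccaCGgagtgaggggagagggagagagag
CTNNA2 CG-rich: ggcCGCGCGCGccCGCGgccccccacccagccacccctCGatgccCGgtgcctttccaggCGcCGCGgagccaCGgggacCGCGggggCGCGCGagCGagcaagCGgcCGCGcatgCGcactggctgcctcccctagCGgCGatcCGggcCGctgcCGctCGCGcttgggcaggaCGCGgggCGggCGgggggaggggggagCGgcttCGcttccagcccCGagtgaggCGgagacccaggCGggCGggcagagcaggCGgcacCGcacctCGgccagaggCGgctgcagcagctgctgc

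These windows held 5, 30, 22 and 43 CG in the order printed, and the median over 35116 RefSeq windows of 300 bases was 14. At least as many CG occurred in 70.4%, 22.4%, 37.7% and 4.98% of all windows. The 50 kb step with the innermost NRXN3 start, 1109 kb into the gene, had a timing of 0.431 ± 0.105 (SD, n = 8 plates), on a scale from 0 for the earliest to 1 for the latest cell. The step with the outermost start had 0.787 ± 0.0575. The step with the NLGN1 start had 0.582 ± 0.0664, and the step with the CTNNA2 start, 328 kb into that gene, had 0.838 ± 0.0532. A CG-rich start thus lay in both mid-S and late DNA among these 4 windows.

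The 8 plates held 26148975 fragments, 1746074 to 4181841 per plate, from 3023 wells. No cell name occurred in more than 1 plate. The analysis kept cells of at least 1000 molecules on autosomes, 1140 KO and 1290 WT cells with 9249981 and 14446367 molecules. KO cells therefore carried fewer molecules each. Timing of a gene is the mean S-phase position of its molecules in a plate, each molecule taking the position of its cell. The median gene had a timing of 0.341 ± 0.0422 in KO cells and 0.306 ± 0.0347 in WT cells (SD, n = 8), later in KO in 7 of 8 plates, over the 4839 genes with at least 10 molecules in every library, so timing differences are given both as measured and after subtracting each library's median gene.

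With both genotypes pooled, 1 of the 6 genes was copied earlier than the median gene and the others later. NRXN2 had a timing of 0.194 ± 0.0487 (SD, n = 8 plates), earlier than the median gene at 0.254, and 17.6% of 8975 measured genes were earlier than it. Each of these reached 10 molecules in every plate when genotypes were pooled, a wider set than the 4839 genes behind the medians of the genotypes. NLGN1 followed at 0.632 ± 0.0338 and NRXN3 at 0.651 ± 0.0416, with 86.4% and 87.6% of genes earlier. The adhesion genes CADM2 and CTNNA2 had 0.795 ± 0.0327 and 0.831 ± 0.0333. LRRTM4 was last at 0.862 ± 0.0413, with 99.4% of genes earlier. NLGN1 and NRXN3 did not differ beyond their spread, with a difference of 0.0187 ± 0.0507 and NRXN3 the later in 6 of 8 plates. The other neighbours in this order kept it in 8 of 8 plates, although CTNNA2 was only 0.0364 ± 0.0206 later than CADM2 and LRRTM4 only 0.0305 ± 0.0177 later than CTNNA2.

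NLGN1, a postsynaptic neuroligin, was later in KO cells in 8 of 8 plates. Its timing in KO cells was lowest at 0.613, had a median of 0.706 and was highest at 0.756, against 0.527, 0.562 and 0.660 in WT cells. The ranges overlapped, but KO was the higher genotype within every plate. The mean was 0.701 ± 0.0449 in KO and 0.577 ± 0.0429 in WT cells (SD, n = 8 each), a difference of 0.124 ± 0.0504 as measured and 0.0890 ± 0.0475 relative to the median gene.

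NRXN3, a presynaptic neurexin, was also later in KO cells in 8 of 8 plates. Its timing in KO cells was lowest at 0.673, had a median of 0.712 and was highest at 0.751, against 0.468, 0.611 and 0.669 in WT cells. The lowest KO plate lay just above the highest WT plate, so the groups did not overlap as measured. After subtracting each library's median gene they did overlap. How many of all genes separate in this way was not counted, and this contrast chose the gene. The mean was 0.711 ± 0.0231 in KO and 0.604 ± 0.0620 in WT cells, a difference of 0.107 ± 0.0653 as measured. Relative to the median gene the difference was 0.0721 ± 0.0712, above 0 in 7 of 8 plates.

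The other genes showed smaller or opposite differences. CADM2 was 0.821 ± 0.0297 in KO and 0.768 ± 0.0560 in WT cells, a difference of 0.0531 ± 0.0589 as measured and 0.0183 ± 0.0771 relative to the median gene. LRRTM4 was 0.866 ± 0.0535 in KO and 0.858 ± 0.0323 in WT cells, and its centred difference was -0.0266 ± 0.0642. That difference had the other sign with at least 5000 molecules per cell (0.0277) and with each cell weighted equally (0.0276). CTNNA2 was 0.822 ± 0.0318 in KO and 0.837 ± 0.0365 in WT cells, and it was earlier in KO in 6 of 8 plates as measured, by -0.0152 ± 0.0256, and in 8 of 8 relative to the median gene, by -0.0500 ± 0.0429. The centred difference of CTNNA2 was -0.0298 with at least 5000 molecules per cell and -0.0144 with each cell weighted equally. As a percentile among all genes of the library, CTNNA2 differed by -0.64 points (limma SE 1.31). With 98.1% of genes earlier in the pooled order, it lay near the end of that scale, where a percentile can move little. The percentile therefore does not settle whether CTNNA2 shifted, and the centred value is not read as a shift of rank. On that scale NLGN1 differed by 10.3 points, NRXN3 by 8.95, CADM2 by 4.20 and LRRTM4 by 0.31, given as a description. NRXN2 rested on 13 to 51 molecules per plate in KO and 15 to 91 in WT cells. Its timing was 0.264 ± 0.157 in KO and 0.195 ± 0.0667 in WT cells, with KO later in 4 of 8 plates, which is no difference beyond the spread, and its centred difference of 0.0349 turned to -0.0676 with each cell weighted equally. In the limma fit over all genes (centred timing), 2 of the 6 were called later in KO, NLGN1 and NRXN3, and 0 earlier, which were also the counts at an unadjusted p under 0.05. Among 4839 genes tested 4.88% were called later and 13.2% earlier. Nothing is read from the count of 2, because this contrast chose the genes. With plate as a block the difference of NRXN3 (0.0721) was not called and that of NLGN1 (0.0890) was. With each cell weighted equally neither was called, at 0.0444 and 0.0515. Among the fits with 1 plate left out, NRXN3 was called only without plate 2 (0.0837) or plate 7 (0.0813). It was not called without plate 1 (0.0508), 3 (0.0719), 4 (0.0712), 5 (0.0695), 6 (0.0785) or 8 (0.0698).

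**Figure D1:**
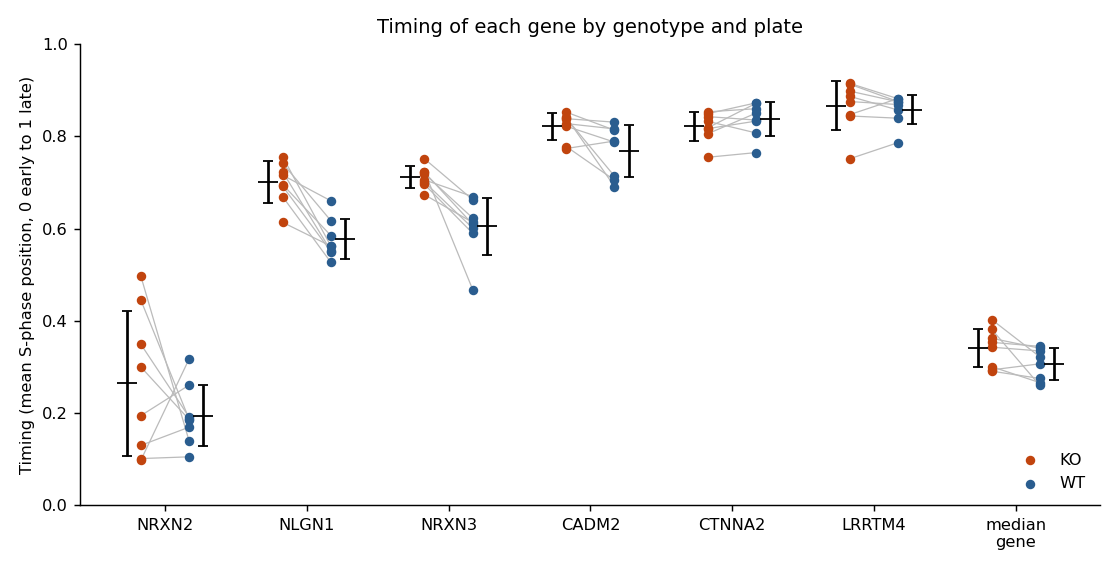
Timing (y axis, 0 early to 1 late) of the 6 genes and of the median gene in KO (left, orange) and WT (right, blue) cells. Points are plates, grey lines join the genotypes of a plate, and black bars are mean and SD over 8 plates. NLGN1 and NRXN3 were later in KO in 8 of 8 plates, and NRXN2 varied most.

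Along NRXN3 the timing was not uniform, and the genotypes differed in 1 stretch more than elsewhere. From its lower-coordinate end, which is the 5′ end, the first 450 kb were late in both genotypes, between 0.787 and 0.850 in the pooled steps. Timing then dropped to its earliest value of 0.414 ± 0.0916 at 850 to 900 kb (chr14:79020373-79070372) and reached 0.691 at 1450 to 1500 kb. At 850 to 900 kb it was 0.542 ± 0.0742 in KO and 0.334 ± 0.0925 in WT cells, later in KO in 8 of 8 plates. The widest gap was at 1150 to 1200 kb (chr14:79320373-79370372), with 0.674 ± 0.127 in KO and 0.340 ± 0.0576 in WT cells, a difference of 0.333 ± 0.147 in 8 of 8 plates. The step of the CG-rich innermost start, at 1100 to 1150 kb, had 0.551 ± 0.126 in KO and 0.363 ± 0.101 in WT cells. In these mid-S steps KO cells were thus later, whereas the first steps went the other way. At 100 to 150 kb the timing was 0.772 ± 0.0549 in KO and 0.842 ± 0.0361 in WT cells, earlier in KO in 8 of 8 plates. Over the gene KO was later in 28 of 34 steps as measured and in 20 relative to the median gene. As measured, KO was later in 8 of 8 plates in 4 of the 34 steps and earlier in 8 of 8 in 1.

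CADM2 showed a similar local gap in a shallower dip. Its pooled timing was 0.847 ± 0.0279 in the first 50 kb and 0.690 ± 0.0830 at 650 to 700 kb (chr3:85608989-85658988). In that step it was 0.796 ± 0.0879 in KO and 0.613 ± 0.127 in WT cells, later in KO in 7 of 8 plates. From 550 to 800 kb the steps ran between 0.758 and 0.819 in KO cells and between 0.613 and 0.691 in WT cells, so the dip was shallower in KO cells. At 100 to 150 kb CADM2 was earlier in KO in 8 of 8 plates, at 0.785 ± 0.0339 in KO and 0.871 ± 0.0313 in WT cells. This was the only one of its 23 steps earlier in KO in 8 of 8 plates, and 2 were later in 8 of 8.

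CTNNA2 had a dip of its own with the genotypes in the opposite order. Pooled timing was earliest at 450 to 500 kb, at 0.723 ± 0.0515. In the step before, at 400 to 450 kb (chr2:79585377-79635376), it was 0.666 ± 0.0816 in KO and 0.837 ± 0.0644 in WT cells, a difference of -0.171 ± 0.0902 with KO earlier in 7 of 8 plates. Over the whole gene KO was later in 13 of 30 steps as measured and in 6 relative to the median gene.

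NLGN1 was later in KO in 18 of 18 steps as measured, by 0.0152 to 0.262, and in 15 relative to the median gene. Its earliest step was the last, at its 3′ end, with 0.540 in KO and 0.381 in WT cells. LRRTM4 was flat, with pooled steps between 0.826 and 0.891 and KO later in 10 of 16 as measured but in 1 relative to the median gene. NRXN2 fills only 3 steps, with as little as 1 molecule in a library, and its profile cannot be resolved at this depth. KO was later in 8 of 8 plates in 3 steps of NLGN1, and no step of LRRTM4, CTNNA2 or NRXN2 had the same direction in 8 of 8. A single step held 2 to 4 molecules in its thinnest library in the other 5 genes, so single steps are less certain than whole genes. Several of the steps named were picked for their extreme values.

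**Figure D2:**
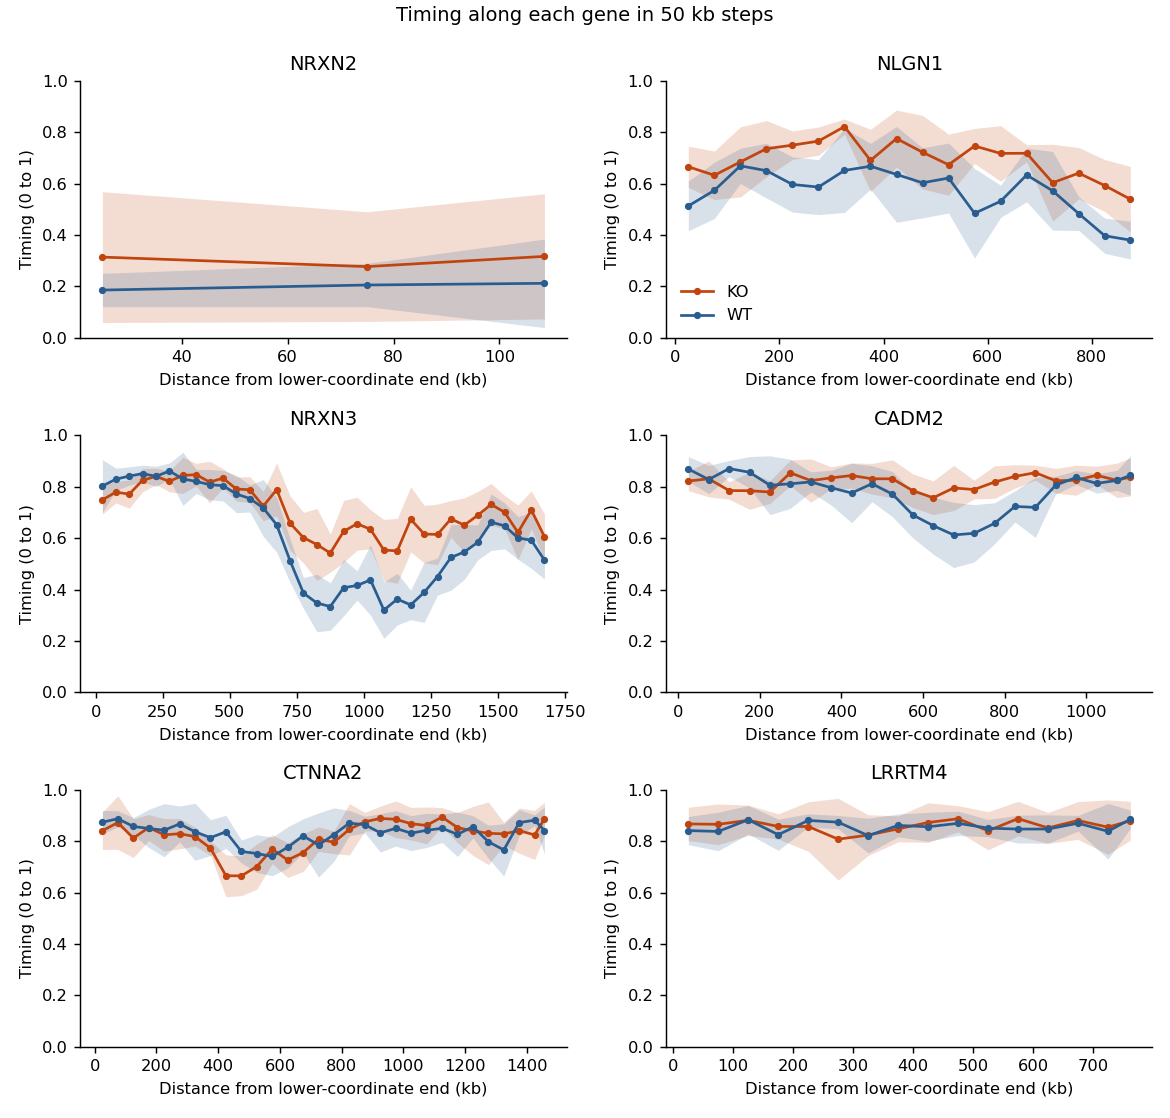
Timing (y axis, 0 to 1) in 50 kb steps along each gene (x axis, distance in kb from the lower-coordinate end) in KO (orange) and WT (blue) cells. Lines are means over 8 plates and bands are SD. KO lies above WT in the middle of NRXN3 (0.674 in KO and 0.340 in WT cells at 1150 to 1200 kb) and of CADM2, and below it near 400 kb in CTNNA2.

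The change of timing along a gene and its contrast with neighbouring DNA were taken with genotypes pooled and tested with limma over all genes of at least 100 kb with Benjamini-Hochberg adjustment. These are other contrasts than KO minus WT, but they take the same molecules and the genes were chosen with their timing known, so the p-values are not independent of that choice. In the first test the lower-coordinate side of each gene, up to its midpoint, was set against the upper-coordinate side. NRXN3 had a timing of 0.753 ± 0.0302 on the lower side and 0.547 ± 0.0452 on the upper side (SD, n = 8), a difference of 0.206 in 8 of 8 plates (limma SE 0.0149, adjusted p = 4.00e-07). NLGN1 had 0.675 ± 0.0354 and 0.586 ± 0.0426, a difference of 0.0891 (adjusted p = 0.00175, limma). In both the lower side is the 5′ side, which was copied later. CADM2 also had the later lower side, by 0.0590 (adjusted p = 0.00543, limma), in 8 of 8 plates with genotypes pooled. By genotype this difference was 0.110 ± 0.0397 in WT cells, above 0 in 8 of 8 plates. In KO cells it was 0.00673 ± 0.0336, above 0 in 5 of 8. CTNNA2 had the earlier 5′ side, by -0.0445 in 8 of 8 plates (adjusted p = 0.0295, limma). Its call was lost without plate 1 (-0.0458), 2 (-0.0451), 3 (-0.0454), 5 (-0.0425), 6 (-0.0420) or 8 (-0.0397), and those of CTNNA2 (-0.0377) and NLGN1 (0.0435) were lost with each cell weighted equally. LRRTM4 and NRXN2 did not pass, at -0.0108 and -0.0104. So 3 of 6 had the later lower side and 1 the earlier, against 15.2% and 13.8% of 3168 genes tested. These genes were not matched to the 6 in length or number of molecules, so no excess is read from the counts.

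By genotype, the sides separated as the profiles did. The upper side of NRXN3 had 0.640 ± 0.0466 in KO and 0.475 ± 0.0440 in WT cells, and its lower side 0.779 ± 0.0188 in KO and 0.732 ± 0.0561 in WT cells. The upper side of CADM2 had 0.817 ± 0.0355 in KO and 0.716 ± 0.0622 in WT cells, while its lower side had 0.823 ± 0.0364 in KO and 0.826 ± 0.0475 in WT cells. In CTNNA2 the lower side minus the upper side was -0.0795 ± 0.0374 in KO cells, below 0 in 7 of 8 plates, and -0.0181 ± 0.0252 in WT cells, below 0 in 6 of 8. These values belong to the contrast that chose the genes and are not tested.

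NRXN3 and NLGN1 were later than the DNA beside them. Against 500 kb on both sides, NRXN3 was later by 0.192 (adjusted p = 1.99e-09) and NLGN1 by 0.128 (adjusted p = 4.43e-07), each in 8 of 8 plates (limma, SE 0.0120 and 0.0133). The flanks of NRXN3 had 0.458 ± 0.0392 and those of NLGN1 0.503 ± 0.0275. CTNNA2 was slightly earlier than its flanks, by -0.0305 in 8 of 8 plates (limma, adjusted p = 0.0121). LRRTM4, CADM2 and NRXN2 did not pass, at 0.0145, -0.0112 and 0.000538. The pooled value of CADM2 joins genotypes of opposite sign, 0.0226 ± 0.0224 in KO cells, above 0 in 7 of 8 plates, and -0.0398 ± 0.0176 in WT cells, below 0 in 8 of 8. With flanks of 1 Mb LRRTM4 (0.0716) and CADM2 (0.0722) were also later than their surroundings, with limma adjusted p of 1.20e-05 and 5.64e-06. Among 3250 genes tested 27.5% were later and 36.4% earlier than their 500 kb flanks, so 2 later and 1 earlier of 6 is near the background at that width. With flanks of 1 Mb, 898 of the 3250 genes were called later and 1593 earlier, and nothing is read from the count of the 6 genes there.

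The 2 flanks of NLGN1 differed between the genotypes. On its upper side the flank had 0.645 ± 0.0733 in KO and 0.467 ± 0.0558 in WT cells, and on its lower side 0.444 ± 0.0438 in KO and 0.481 ± 0.0342 in WT cells. In KO cells the upper flank was the later in 8 of 8 plates, and in WT cells in 4 of 8. NRXN3 had 0.503 ± 0.0726 in KO and 0.394 ± 0.0452 in WT cells in its upper flank. This gap varied between plates, from 0.630 in KO and 0.387 in WT cells in plate 2 to 0.436 in both in plate 6. The lower flank of NRXN3 had 0.447 ± 0.0660 in KO and 0.493 ± 0.0530 in WT cells. As measured, the later mean timing in KO cells thus ran beyond the 3′ end of both genes and not beyond their 5′ ends. These flank values were not set relative to the median gene, which was itself later in KO in 7 of 8 plates.

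**Figure D3:**
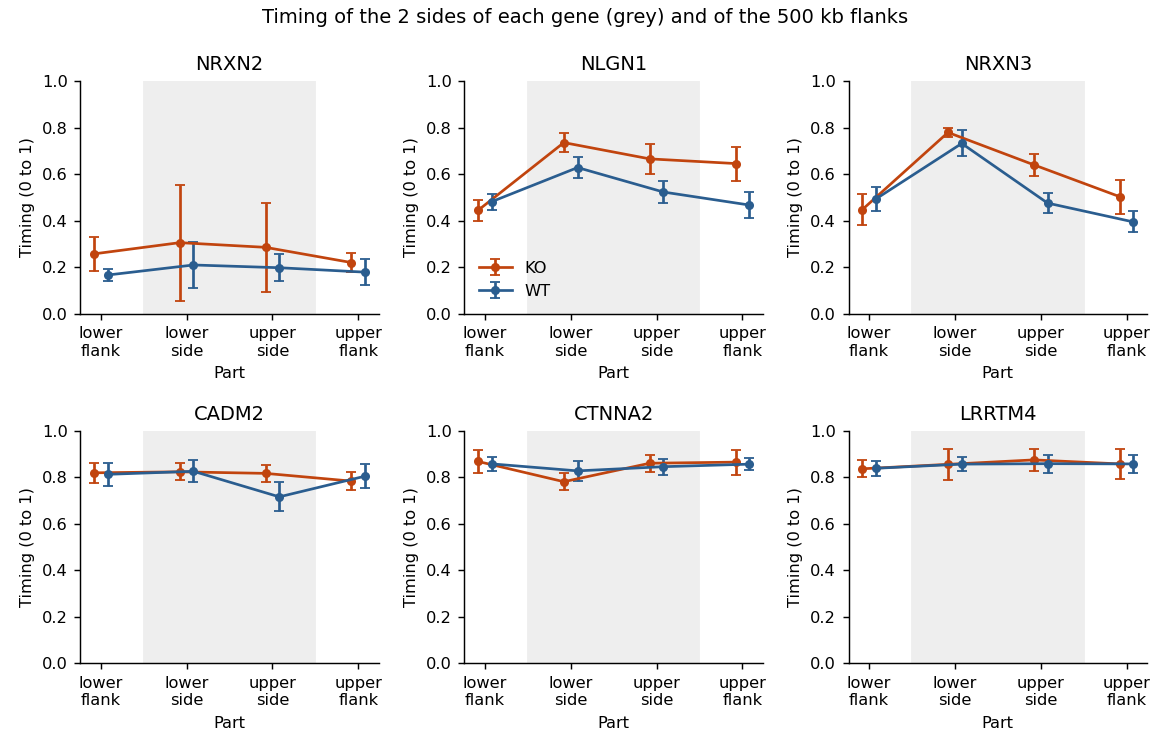
Timing (y axis, 0 to 1) of the lower and upper side of each gene (grey) and of the 500 kb flanks (x axis, in order of coordinates) in KO (orange) and WT (blue) cells, as mean and SD over 8 plates. KO is above WT in the upper side and upper flank of NLGN1 and NRXN3 and in the upper side of CADM2.

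The amount of label was compared per 1000000 autosomal molecules of a library. CADM2 had 412, 561 and 770 in KO cells as lowest, median and highest plate, against 334, 458 and 528 in WT cells. KO was higher in 7 of 8 plates although the ranges overlapped, and the voom log2 ratio of KO over WT was 0.35. NRXN3 had 692, 846 and 962 in KO and 637, 713 and 791 in WT cells, higher in KO in 8 of 8 plates with a log2 ratio of 0.22. NLGN1 was higher in KO in 7 of 8 plates, with means of 436 ± 38.4 in KO and 381 ± 31.4 in WT cells. CTNNA2 had 705 ± 57.7 in KO and 665 ± 109 in WT cells, a log2 ratio of 0.09. LRRTM4 had 332 ± 100.3 in KO and 327 ± 48.0 in WT cells, with a voom log2 ratio of -0.05, a mean over log values that can differ in sign from the ratio of the means. Its sign is not settled, since it was 0.00115 with plate as a block and 0.078 without plate 2. CTNNA2 and LRRTM4 lay within the spread of the plates. NRXN2 had 23.7 ± 12.1 in KO and 30.8 ± 10.8 in WT cells, and its log2 ratio of -0.53 came from plates between -1.68 and 1.11.

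In the limma voom fit, CADM2 was the only one of the 6 called with more molecules in KO and 0 were called with fewer, beside 0.194% of 9265 genes called with more and 1.26% with fewer. At an unadjusted p under 0.05 the counts were 3 with more and 1 with fewer. Nothing is read from this count, since molecules by genotype were part of the choice. With plate as a block NRXN3 was called too, at 0.23, and CADM2 at 0.37. The call of CADM2 was lost without plate 2 (0.316), 3 (0.337), 5 (0.345) or 7 (0.328). KO cells had fewer molecules each, as given above, and the part of this in the ratios was not tested.

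**Figure D4:**
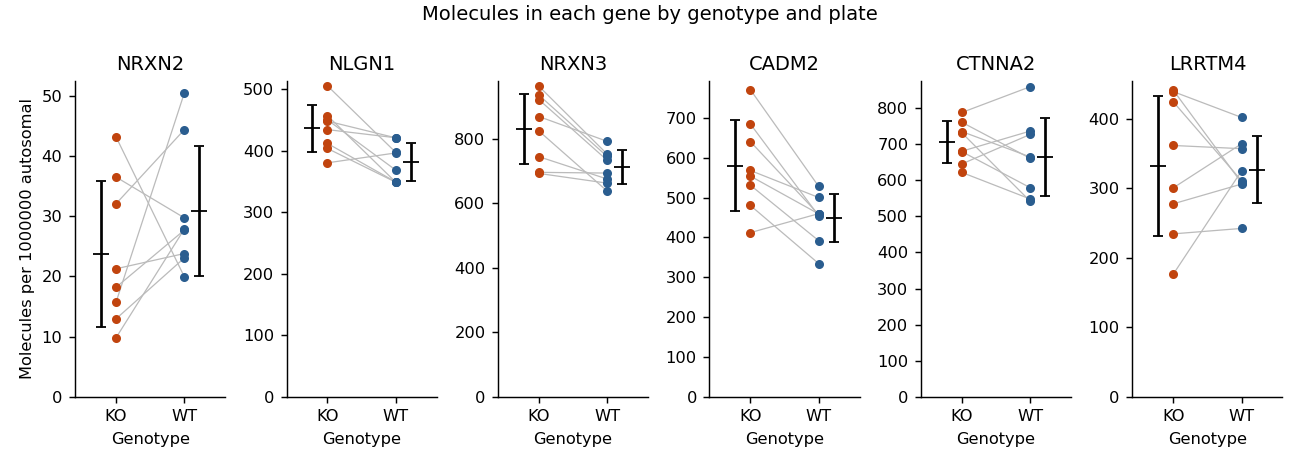
Molecules in each gene per 1000000 autosomal molecules (y axis, from 0, a separate scale for each gene) in KO (left) and WT (right) cells. Points are plates, grey lines join the genotypes of a plate, and black bars are mean and SD (n = 8). CADM2 and NRXN3 were higher in KO in 7 and 8 of 8 plates.

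Per length, the density of label in the gene was set against its flanks over both genotypes, again from the molecules that the choice of genes had seen. NRXN2 was denser than its flanks by 0.44 on the log2 scale in 7 of 8 plates (limma, adjusted p = 0.00273), with 0.246 ± 0.0671 against 0.179 ± 0.0408 molecules per kb and 1000000. NRXN3 was denser by 0.21 in 8 of 8 plates (limma, adjusted p = 0.0337). The call of NRXN3 was lost without plate 2 (0.202), 3 (0.207), 5 (0.210), 6 (0.176) or 7 (0.169) and with each cell weighted equally (0.104). CADM2, LRRTM4, NLGN1 and CTNNA2 did not pass, at 0.12, -0.11, -0.01 and -0.01. Of 3250 genes, 18% were denser and 17% less dense than their flanks, beside 2 of 6 denser and 0 of 6 less dense here, with the same counts at an unadjusted p under 0.05.

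The ordered cells were divided into 4 sets of equal size, from early to late, and the density of each gene was taken relative to the autosomes of the same set and genotype. Set 1 held 31.8% ± 7.14 of autosomal molecules in KO and 37.2% ± 6.97 in WT cells. The scaling is to each set as a whole, and whether the genotypes lie differently within a set was not tested. NRXN3 had 0.529 ± 0.113 in set 1 in KO and 0.829 ± 0.104 in WT cells, and in set 4 it had 2.07 ± 0.262 in KO and 1.54 ± 0.214 in WT cells (SD, n = 8). NLGN1 had 0.536 ± 0.146 in set 1 in KO and 0.879 ± 0.175 in WT cells, and in set 4 it had 2.02 ± 0.268 in KO and 1.39 ± 0.189 in WT cells. In both genes KO cells had less label early and more label late. NLGN1 also differed in set 2, with 1.11 ± 0.255 in KO and 1.61 ± 0.419 in WT cells, where WT had its maximum.

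CADM2 differed mainly in set 4, with 2.83 ± 0.513 in KO and 2.11 ± 0.317 in WT cells, while set 1 had 0.190 ± 0.0838 in KO and 0.242 ± 0.0761 in WT cells. CTNNA2 had 2.52 ± 0.284 in KO and 2.65 ± 0.538 in WT cells in set 4, and LRRTM4 had 2.45 ± 0.980 in KO and 2.56 ± 0.554 in WT cells, within the spread of the plates. NRXN2 was the reverse of these genes, with 1.32 ± 0.902 in KO and 1.62 ± 0.602 in WT cells in set 1 and, in set 4, 0.0865 ± 0.0947 in KO and 0.144 ± 0.101 in WT cells.

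**Figure D5:**
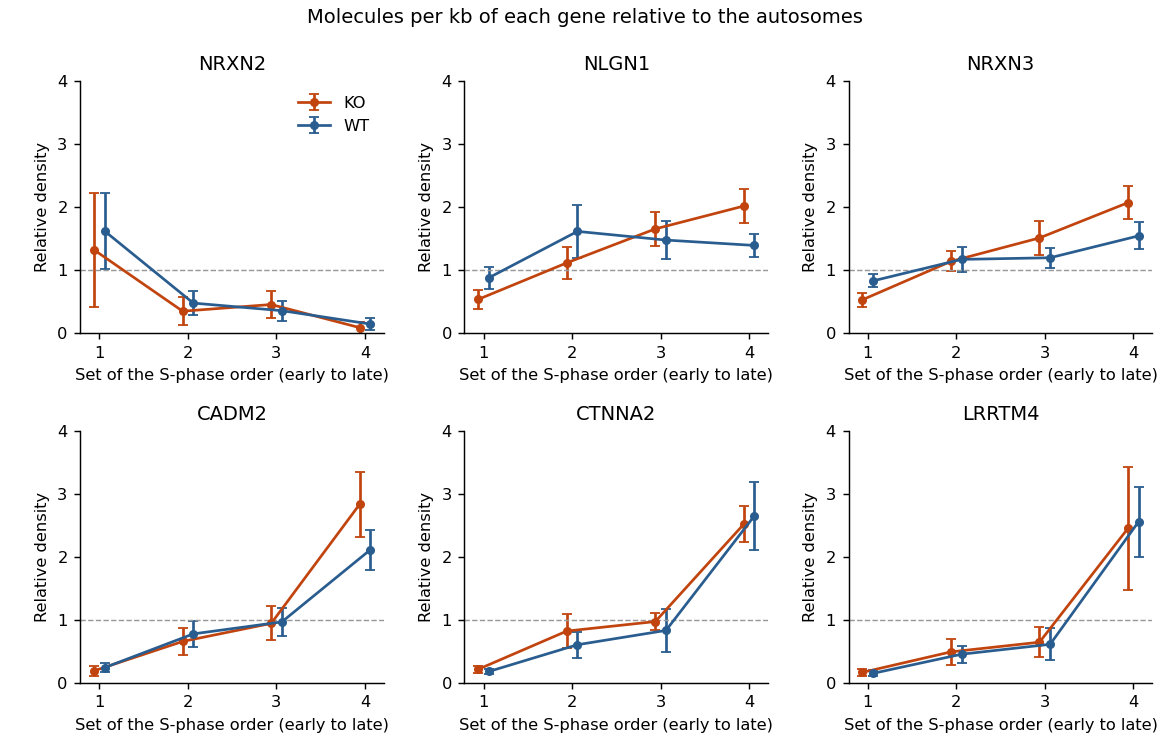
Molecules per kb in each gene relative to the autosomes of the same set and genotype (y axis, 1 is the autosomal mean, dashed) in 4 sets of the S-phase order (x axis, early to late) in KO (orange) and WT (blue) cells, as mean and SD over 8 plates. In NLGN1 and NRXN3 the KO line starts below and ends above the WT line.

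Cells with at least 5000 molecules, 431 of 1140 KO and 483 of 1290 WT cells, were thinned to 5000 each and scored for at least 1 molecule in the gene. In set 1 NRXN3 was labelled in 61.9% ± 13.7 of KO and 74.2% ± 7.06 of WT cells, and before thinning in 81.2% of KO and 91.8% of WT cells. NLGN1 was labelled in 38.8% ± 12.7 of KO and 53.2% ± 12.2 of WT cells in set 1, and before thinning in 60.6% of KO and 81.5% of WT cells. The shares in KO cells were lower by amounts near 1 SD between plates. CTNNA2 was labelled in 38.0% ± 15.6 of KO and 37.4% ± 9.21 of WT cells there, and before thinning in 65.3% of KO and 75.2% of WT cells. In set 4 CADM2 was labelled in 77.7% ± 8.56 of KO and 89.8% ± 5.51 of WT cells, and before thinning in 90.1% of KO and 96.5% of WT cells. It had 5.16 ± 1.02 molecules per KO cell and 4.15 ± 0.688 per WT cell. The share and the mean level of CADM2 thus ran in opposite directions in set 4. After thinning the same held there for NRXN3, labelled in 86.5% of KO and 89.1% of WT cells with 5.842 and 4.398 molecules per cell. It also held for LRRTM4 (55.7% and 63.9%, with 4.245 and 3.747). CTNNA2 was opposed with the signs reversed (94.2% and 86.3%, with 7.413 and 7.965). In NLGN1 (77.9% and 76.5%, with 2.879 and 2.105) and NRXN2 both were higher in KO cells. No order is therefore read from the shares in set 4.

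The genes whose molecules in 10 equal steps of the order and genotype were most like those of NRXN3, among 1344 genes of at least 200 kb over 20 values, were NALF1 (r = 0.987), ASTN2 (r = 0.986) and ARHGAP42 (r = 0.981). For NLGN1 they were NRXN3 itself (r = 0.980), NXPE2 (r = 0.979) and KIAA1328 (r = 0.973). These correlations share libraries, depth and the order of cells, and NLGN1 and NRXN3 were both chosen for a later timing in KO.

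A list of 66 further synaptic adhesion genes, also chosen with results known, was set beside the 6. Of 45 measured, 37 were later and 8 earlier than the median gene, with a median timing of 0.591 against 0.254 over all genes. The earliest were MDGA1 (0.182) and CTNNA1 (0.187), the alpha-catenin of epithelial cells, and the latest NLGN4X (0.879) and LRRC4C (0.861). In the limma fit of KO minus WT timing, 2 of 37 were called later, CDH2 by 0.115 (adjusted p = 0.00137) and ADGRL2 by 0.0798 (adjusted p = 0.0244). N-cadherin, the product of CDH2, binds catenins, and ADGRL2 is a latrophilin. LRFN2 (-0.204), NTRK3 (-0.187) and GPC4 (-0.0956) were called earlier in KO, with limma adjusted p of 8.38e-05, 0.000601 and 0.0380. Over all genes tested 4.88% were called later and 13.2% earlier. The list's median difference was -0.00200, against -0.00115 over all genes. PTPRD, a receptor phosphatase of the presynaptic side, was the only one of 46 called with more molecules in KO, by 0.37 on the log2 scale (limma voom, adjusted p = 0.0217), beside 0.194% of all genes. Of 34 genes with both sides measured, 10 had the later lower side and 6 the earlier, beside 15.2% and 13.8% of all genes tested, with TENM2 (0.330) at one end and CASK (-0.156) at the other. Of 35 genes set against their flanks, 14 were later and 6 earlier, beside 27.5% and 36.4% of all genes tested. In density 9 were above and 1 below their flanks, beside 18% and 17%. Nothing particular to the list is read from these counts. DLG2 was later than its flanks by 0.478 (limma, adjusted p = 3.84e-12), more than NRXN3, and its difference between the genotypes was -0.0186 (limma, adjusted p = 0.673).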

How the data were processed

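scEdU-seq was analysed in KO and WT RPE-1 hTERT cells of 8 plates. Each line of the deposited files is 1 fragment with, per the file headers, its cell, chromosome, position in bases, signed length and a treatment column that holds the genotype: positions and other values that are neither counted nor scaled. The build is GRCh38, per the submitters' processing notes, with aligner and filters not given in the sources used here. Genotype came from that column, because the titles list KO and WT cells for each plate but the genotype field of the labels names KO alone. Repeated fragments made up 3.24% to 4.60% of a plate and were kept.

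Each fragment was taken as 1 molecule. Cells with at least 1000 autosomal molecules (2430) were ordered by correspondence analysis of autosomal 500 kb bins (first axis, 18.8% of the variation), with the gene-rich end called early, and ranked from 0 to 1 (numpy 2.4.6, scipy 1.17.1, pandas 2.3.3, Python 3.11.15). Timing needed at least 10 molecules per library (plate and genotype) or plate, and centred timing subtracts the library's median gene. limma 3.58.1 in R 4.3.3 tested all genes with Benjamini-Hochberg adjustment at 0.05: timing of KO minus WT over 16 libraries, molecules per gene with voom scaled by the autosomal total (mean of at least 10), and, as an intercept over 8 plates, lower minus upper side, gene minus 500 kb flanks and log2 density over flanks for genes of at least 100 kb. No count model was used, because the files hold positions. The procedures were tested on simulated data.

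Plates are shared by both genotypes per the titles and pair the libraries. Deviations from the genotype mean had a correlation within plates of 0.0123 on average for timing (other plates -0.00169) and 0.0167 for log2 molecules (other plates -0.00241). Named genes are the 6, those of the 66-gene list that pass a test or lie at its ends, and for NLGN1 and NRXN3 the 3 most alike genes on another chromosome. The 6 genes, the list and the tests were chosen with earlier results of these data known. Start sites and sequences are from RefSeq GRCh38.p14. Alternatives covered cells, bins, weights, repeated fragments, scaling, flanks, the plate as a block and plates left out.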

Additional observations from a re-analysis of the deposited data

Results flagged for a closer look

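In 24 sets of 8 plates (timing and molecules of the 6 genes in KO and in WT cells), 3 had a plate far from the other plates by Dixon's ratio at the 95% level for 8 samples. Chance flags about 1 in 20 such sets. NRXN3 had a timing of 0.468 in the WT cells of plate 1, and the next lowest WT plate had 0.590. Without plate 1 the centred difference of NRXN3 between KO and WT was 0.0508. LRRTM4 had its lowest timing in plate 8 in both genotypes, 0.751 in KO cells, where the next plate had 0.844, and 0.786 in WT cells, where the next plate had 0.839. Plate 8 also gave the fewest LRRTM4 molecules in both genotypes, 190 in KO and 182 in WT cells, and the fewest fragments of all plates, 1746074. Its low timing was not particular to LRRTM4. Plate 8 was the lowest for CTNNA2 in KO (0.755) and WT cells (0.765), for pooled CADM2 (0.746) and for the pooled LRRTM4 flanks (0.771). NLGN1, NRXN3 and NRXN2 had their lowest pooled timing in other plates. No gene had its genotypes opposed in every plate for the difference between its sides or between its flanks. The flanks of NRXN3 came close. Their lower minus upper difference was -0.0561 ± 0.0610 in KO cells, below 0 in 7 of 8 plates. In WT cells it was 0.0989 ± 0.0449, above 0 in 8 of 8.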

How the results depend on the processing

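With each cell weighted equally, 152 genes were called for timing of KO minus WT in place of 874, 407 for lower minus upper side in place of 917, and 686 for density over flanks in place of 1135. The pooled timing moved to 0.342 in NRXN2, where the median gene moved to 0.366 and the share of genes earlier than NRXN2 to 34.3%, and to 0.578 in NRXN3, 0.577 in NLGN1, 0.721 in LRRTM4, 0.70 in CTNNA2 and 0.674 in CADM2. With at least 5000 molecules per cell it moved to 0.598 in NRXN3, 0.578 in NLGN1, 0.781 in CTNNA2 and 0.711 in CADM2. The share of genes earlier than each gene was then 87.5%, 85.5%, 98.2% and 95.5%. At least 50 molecules per library left 1252 genes for timing, 464 of them called (238 later and 226 earlier), and NRXN2 had no value. Uncentred timing called 622 later and 380 earlier, percentiles 403 and 540, against 236 and 638 with centring; these choices were added after seeing the data. With flanks of 1 Mb the difference of CADM2 turned to 0.0722. Without 1 plate the molecule test called 87 to 132 genes, against 135 with all, fewest without plate 2 (87) and plate 7 (88). With plate as a block 836 genes were called for timing and 175 for molecules, and among the 6 genes it changed only the calls of NRXN3 given above. The cause of these shifts was not tested. NLGN1 and NRXN3 stayed later in KO under all alternatives run, but this contrast chose them, so nothing is read from their constant sign. Their calls did not all hold, as given above. The signs of LRRTM4 and NRXN2, which were not called, turned as given above. As a percentile among all genes, the difference of CTNNA2 between KO and WT was -0.64 points, near the end of that scale, as given above. Depth limits NRXN2 most.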
